A study of Homo sapiens with 6 samples.

Results

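The 9 genes described here encode the MAP kinase phosphatases of the DUSP family that were listed in the expression table of a study of PDIA1 inhibitors in myeloma cells. The members were chosen by name, as a family, with earlier results of these data known. All 9 of the 9 named genes (DUSP1, DUSP2, DUSP4, DUSP5, DUSP6, DUSP7, DUSP8, DUSP10 and DUSP16) had a row in all 6 libraries, out of 11048 genes listed. MM1.S, a human multiple myeloma cell line, was treated for 6 h with DMSO (the solvent control), with 3 µM CCF642 or with 3 µM CCF642-34, and polyA RNA was sequenced from 2 libraries per group. CCF642 is an inhibitor of PDIA1, the endoplasmic reticulum enzyme that forms disulfide bonds in secreted proteins, and CCF642-34 is an analogue of it. All groups came from the same cell line, with no genetic change between them. The labels do not say whether the 2 libraries of a group came from separate cultures. The p-values thus rest only on spread between these libraries, and the spread of each gene was estimated mostly from the other genes.

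MAP kinase phosphatases remove phosphate from both the threonine and the tyrosine of the activation loop of ERK, JNK and p38, and so switch these kinases off. Distinct kinds are usually set apart. DUSP1, DUSP2, DUSP4 and DUSP5 are nuclear enzymes whose genes are rapidly induced by growth factors and stress. DUSP6 and DUSP7 are cytoplasmic and prefer ERK. DUSP8, DUSP10 and DUSP16 prefer JNK and p38. Several of these genes are themselves transcribed in response to MAP kinase signalling, which makes them both brakes on the pathway and readouts of it. DUSP9, which also prefers ERK, was looked for and is not among the listed genes.

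The read totals that the deposited values are relative to were recovered from those values, at 20567313 to 28459677 reads per library. Of these reads, 99.9% fell on the listed genes. All 10 plasma cell markers were listed, and their summed level was 9905 to 10003 CPM (read counts relative to all reads of the library) with DMSO, 7020 to 7054 with CCF642 and 7866 to 7911 with CCF642-34. JCHAIN was the largest part of this sum, with means of 4318.5 CPM with DMSO, 1833 with CCF642 and 2348 with CCF642-34. In deposited CPM, SDC1, CD38, TNFRSF17, MZB1 and POU2AF1 were also lower with both compounds, and IRF4 and SLAMF7 were higher. PRDM1 and XBP1 were higher with CCF642 and lower with CCF642-34. Of the markers of other cells, 1 of 6 for mature B cells (BACH2), 1 of 4 for T cells (CD3E), 1 of 5 for myeloid cells (CD68) and 4 of 5 for stromal and epithelial cells were listed, with summed levels of 36.4 to 84.7, 2.09 to 3.19, 9.87 to 13.4 and 100.9 to 142 CPM in the 6 libraries. The stromal and epithelial sum was mostly VIM, which many blood cells also express, and was 100.87 and 100.96 CPM with DMSO and 129 to 142 CPM with the compounds. BACH2 moved with treatment, from 36.4 and 39.4 CPM with DMSO to between 79.3 and 84.7 CPM in the 4 treated libraries. COL1A1, a collagen gene of stromal cells, was at 1.09 and 1.495 CPM with DMSO, at 8.99 and 10.5 CPM with CCF642 and at 2.74 and 3.53 CPM with CCF642-34. The part of these markers in the results below was not tested.

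Of the 9 members, 7 were higher with CCF642 than with DMSO and 2 were lower. With CCF642-34, 6 were higher, 2 were lower and DUSP2 did not pass the test; with library size alone these counts were 5 and 3. The largest change of a member in both comparisons was that of DUSP8, DUSP4 was among the 6 by a margin that several other settings removed, and the members that fell were the same with both compounds, DUSP6 and DUSP7. In bulk RNA, a change in the RNA of each cell and a change in the share of cells that hold it cannot be told apart. The test was limma on log2 of the scaled CPM plus 1, with p-values adjusted over all 11048 genes. A call is an adjusted p under 0.05. Of all genes, 31.8% were called higher and 31.3% lower with CCF642, so a call alone says little. By a second rule, a 2-fold change or more and a p under 0.05 before adjustment, 5 members were higher against 4.5% of all genes, and 1 was lower against 1.99%. With CCF642-34 the background was 29.7% called higher and 27.9% called lower. At 2-fold it was 2.59% and 1.29%, and 3 members were higher and 1 was lower. The median log2 fold change of the 9 members was 1.56 with CCF642 and 0.74 with CCF642-34, where that of all genes was -0.0066 and 0.0067. Both comparisons use the same DMSO libraries, so they are not independent of each other.

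**Figure D1:**
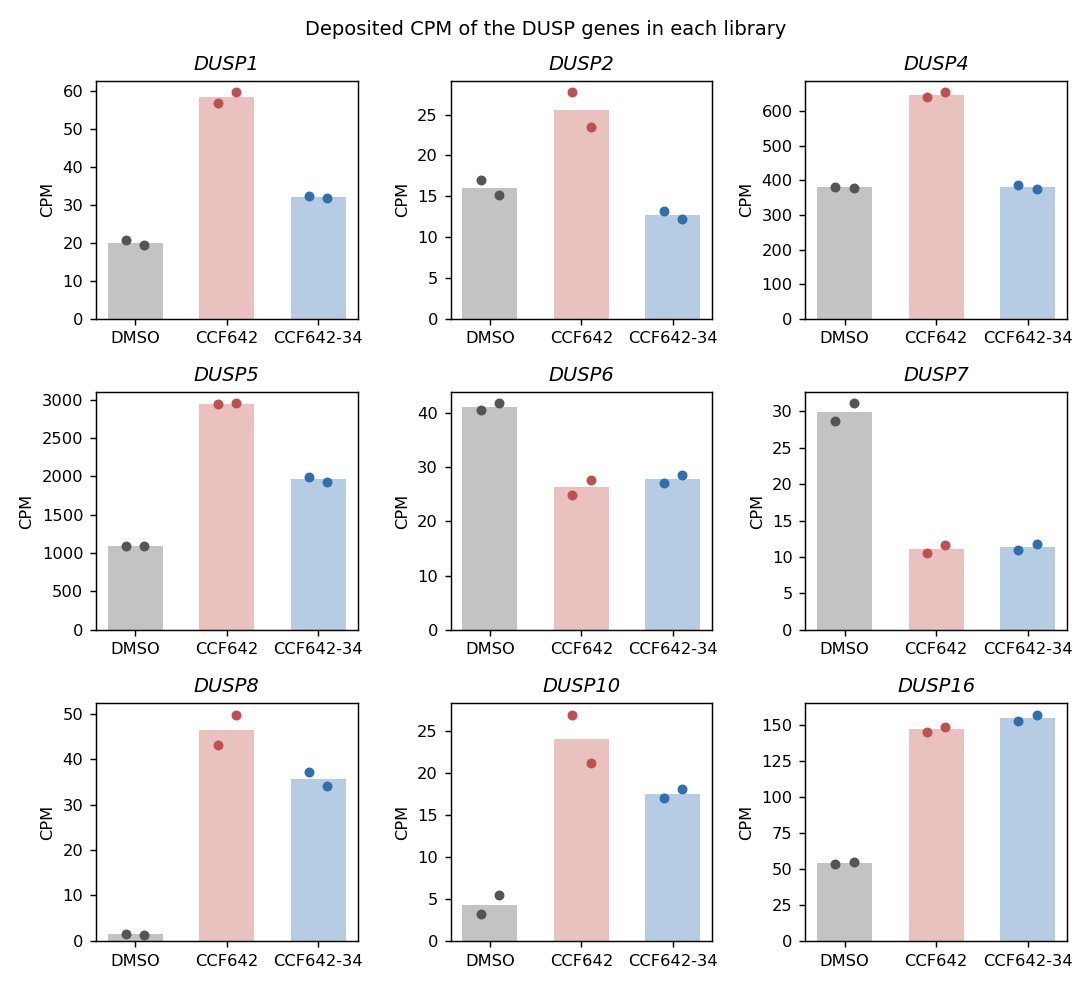
Deposited CPM of each of the 9 DUSP genes (y axis, a separate linear scale from 0 in each panel) in the 3 groups; points are the 2 libraries and bars their mean. DUSP8 went from near 0 with DMSO to between 34.0 and 49.8 CPM with the compounds, DUSP6 and DUSP7 were lower with both compounds, and DUSP4 with CCF642-34 lay at the DMSO level.

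DUSP8, which prefers JNK and p38, was nearly silent in DMSO and was expressed with both compounds. Its level was 1.48 and 1.40 CPM in the DMSO libraries, which is 34 and 30 reads. Exact 95% binomial intervals for counting error were 1.02 to 2.07 and 0.946 to 2.001 CPM. With CCF642 it was 43.2 and 49.8 CPM, and with CCF642-34 it was 37.2 and 34.0 CPM. The 3 groups did not overlap. The log2 fold change was 4.38 ± 0.11 (SE, 2 libraries per group, limma adjusted p = 6.48e-35) with CCF642 and 3.96 ± 0.11 (adjusted p = 7.66e-33) with CCF642-34. On this scale DUSP8 ranked as gene 6 from the top of all 11048 genes with CCF642 and as gene 7 with CCF642-34. The added pseudocount of 1 shrinks the change of a gene this low. The plain ratio of mean CPM was 32.3 with CCF642 and 24.7 with CCF642-34, and the log2 fold changes lay between 3.29 and 5.15, and between 2.90 and 4.71, over the pseudocounts, scalings and models tried.

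DUSP10, another phosphatase of JNK and p38, rose from a low level with both compounds. It was at 3.22 and 5.42 CPM in the DMSO libraries, from 74 and 116 reads. The counting intervals of these libraries, 2.53 to 4.04 and 4.48 to 6.50 CPM, did not overlap, so the DMSO libraries differed by more than counting error. With CCF642 DUSP10 was at 26.9 and 21.2 CPM, and with CCF642-34 at 17.0 and 18.02 CPM. Every treated library lay above both DMSO libraries. The log2 fold change was 2.38 ± 0.14 (SE, limma adjusted p = 1.70e-20) with CCF642 and 1.90 ± 0.14 (adjusted p = 8.85e-17) with CCF642-34. Most of the spread behind these values was shared from other genes. Over the scalings and models tried, the adjusted p was as high as 0.0147 with CCF642 and 0.0258 with CCF642-34.

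DUSP16, the third phosphatase of this kind and one that acts mainly on JNK, rose with both compounds. It was at 53.2 and 55.0 CPM with DMSO, at 145 and 149 CPM with CCF642, and at 153 and 157 CPM with CCF642-34. The treated libraries lay far above the DMSO libraries. On the deposited scale the highest were those of CCF642-34, but on the scaled values of the fit the compounds overlapped. On the log2 scale the change was 1.56 ± 0.053 (SE, limma adjusted p = 1.36e-29) with CCF642 and 1.59 ± 0.053 (adjusted p = 9.30e-30) with CCF642-34, that is, 2.94-fold and 3.01-fold.

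The sequence upstream of DUSP8, DUSP10, DUSP16 and DUSP1 is shown here because these members rose with both compounds. RefSeq windows (GRCh38.p14) matched 7 of the 9 members, all but DUSP4 and DUSP5, in 8 windows, since DUSP10 has 2 start sites in the table. A start is that of the RefSeq table, and for DUSP8 and DUSP16 it lies upstream of the gene end that GENCODE gives. The 250 bases before the start are printed 5′ to 3′ along the gene for DUSP8 (chr11:1572272-1572521), DUSP10 (its upstream start site, chr1:221742090-221742339), DUSP16 (chr12:12562864-12563113) and DUSP1 (chr5:172771196-172771445), all on the minus strand. Capitals mark the motifs searched for that were found.
DUSP8: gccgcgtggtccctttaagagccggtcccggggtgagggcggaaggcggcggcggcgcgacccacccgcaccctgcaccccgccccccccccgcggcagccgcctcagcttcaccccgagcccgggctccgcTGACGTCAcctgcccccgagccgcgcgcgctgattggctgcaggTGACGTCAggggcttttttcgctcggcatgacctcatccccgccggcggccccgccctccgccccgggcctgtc
DUSP10: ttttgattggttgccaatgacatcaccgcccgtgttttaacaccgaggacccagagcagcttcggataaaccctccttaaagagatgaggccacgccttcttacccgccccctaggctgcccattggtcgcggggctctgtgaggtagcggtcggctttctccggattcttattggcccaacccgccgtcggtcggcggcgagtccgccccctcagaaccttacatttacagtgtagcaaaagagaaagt
DUSP16: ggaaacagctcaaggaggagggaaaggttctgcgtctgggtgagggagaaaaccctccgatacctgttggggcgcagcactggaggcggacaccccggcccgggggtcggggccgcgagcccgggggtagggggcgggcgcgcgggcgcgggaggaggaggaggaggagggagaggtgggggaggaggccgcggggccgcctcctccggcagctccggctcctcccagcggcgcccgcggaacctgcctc
DUSP1: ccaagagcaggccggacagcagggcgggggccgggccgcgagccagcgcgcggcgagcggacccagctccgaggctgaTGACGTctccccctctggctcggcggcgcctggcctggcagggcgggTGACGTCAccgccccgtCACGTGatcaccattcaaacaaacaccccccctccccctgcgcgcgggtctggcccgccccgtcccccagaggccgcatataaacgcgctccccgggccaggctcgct

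The DUSP8 stretch held 2 full copies of TGACGTCA, the palindromic cAMP response element that CREB and ATF proteins bind, at 118 to 111 and at 74 to 67 bases before the start. The DUSP1 stretch held 1 full copy at 125 to 118 bases, a further core TGACGT at 172 to 167 bases, and the E-box CACGTG at 108 to 103 bases. Both strands were searched, and the core lies within the full element. The core was in 7.1% of all 35116 windows and in 9.43% of the 13061 windows of listed genes. The full element, searched for after the cores in DUSP1 and DUSP8 had been seen, was in 1.65% of all windows and 2.48% of those of listed genes, and 19 of all windows held at least 2 copies. The E-box was in 6.34% and 8.28%, and also in the window of DUSP2. AP-1 (TGANTCA, 6.57% of all windows and 4.36% of those of listed genes), the C/EBP-ATF response element (TGATGNAA, 3.14% and 1.69%), the heat shock element core (GAANNTTC, 5.78% and 4.17%), the ETS motif (CCGGAAGT, 3.42% and 6.32%) and the CArG box (1.16% and 1.06%) were in none of the 8 windows of the members. These are matches of letters in a window of fixed length, and binding was not measured.

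DUSP1, a nuclear phosphatase and an immediate early gene, rose with both compounds. It was at 20.6 and 19.5 CPM with DMSO, at 56.9 and 59.6 CPM with CCF642 and at 32.4 and 31.9 CPM with CCF642-34. The groups lay apart, with CCF642-34 between the others. Against DMSO, the log2 fold change was 1.62 ± 0.079 (SE, limma adjusted p = 4.07e-23) with CCF642 and 0.74 ± 0.079 (adjusted p = 3.76e-11) with CCF642-34, that is, 3.08-fold and 1.67-fold.

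DUSP5, a nuclear phosphatase specific to ERK, was the most abundant member and showed the same order of groups. It was at 1090.1 and 1098 CPM with DMSO, at 2945 and 2951 CPM with CCF642, and at 1998 and 1925 CPM with CCF642-34. The libraries of a group differed little beside the distance between groups. On the log2 scale DUSP5 rose by 1.56 ± 0.034 (SE, limma adjusted p = 1.53e-37) with CCF642, or 2.96-fold. It was 0.93 ± 0.034 (adjusted p = 5.88e-28) with CCF642-34, or 1.91-fold.

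DUSP4, a nuclear phosphatase that acts on ERK and JNK, rose with CCF642. It was at 382 and 378 CPM with DMSO, at 641 and 655 CPM with CCF642, and at 385 and 375 CPM with CCF642-34. The CCF642 libraries stood apart, whereas on the deposited scale the CCF642-34 libraries lay on both sides of the DMSO libraries. The log2 fold change was 0.90 ± 0.039 (SE, limma adjusted p = 2.27e-25) with CCF642. With CCF642-34 it was 0.089 ± 0.039 (adjusted p = 0.0454), or 1.06-fold. That call did not hold when libraries were scaled by their size alone (log2 fold change -0.00042, adjusted p = 0.994) or by DESeq2 size factors. It was also lost among genes with a mean of at least 5 CPM, with DESeq2, with a gene-wise model and with a replicate block. Leaving out DMSO replicate 1, DMSO replicate 2 or CCF642-34 replicate 1 removed it as well.

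DUSP2, a nuclear phosphatase best known from activated lymphocytes, was higher with CCF642 and not with CCF642-34. It was at 16.9 and 15.2 CPM with DMSO, at 27.7 and 23.5 CPM with CCF642 and at 13.2 and 12.2 CPM with CCF642-34. The CCF642-34 libraries were the lowest of all. On the log2 scale DUSP2 rose by 0.77 ± 0.11 (SE, limma adjusted p = 2.08e-08) with CCF642, or 1.70-fold. With CCF642-34 it was -0.23 ± 0.11 (95% interval -0.44 to -0.016), which missed the threshold after adjustment (adjusted p = 0.0607), and it passed without CCF642 replicate 1 (0.0435) or CCF642 replicate 2 (0.0410), which enter this comparison only through the shared spread. It also passed with library size alone (log2 fold change -0.31, adjusted p = 0.0105) and among genes with a mean of at least 5 CPM (0.0482).

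DUSP6 and DUSP7, the cytoplasmic phosphatases of ERK, were lower with both compounds. DUSP7 was at 28.6 and 31.1 CPM with DMSO, at 10.6 and 11.6 CPM with CCF642, and at 10.9 and 11.7 CPM with CCF642-34. All treated libraries lay well below the DMSO libraries and the compounds overlapped. The log2 fold change of DUSP7 was -1.22 ± 0.11 (SE, limma adjusted p = 8.22e-14) with CCF642 and -1.24 ± 0.11 (adjusted p = 7.86e-14) with CCF642-34, that is, 2.33-fold and 2.36-fold lower. DUSP6, a classical transcriptional readout of ERK activity, was at 40.6 and 41.8 CPM with DMSO, at 24.9 and 27.7 CPM with CCF642, and at 27.1 and 28.5 CPM with CCF642-34. It showed the same order with a smaller change. Its log2 fold change was -0.50 ± 0.083 (SE, limma adjusted p = 1.06e-06) with CCF642 and -0.46 ± 0.083 (adjusted p = 4.88e-06) with CCF642-34.

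**Figure D2:**
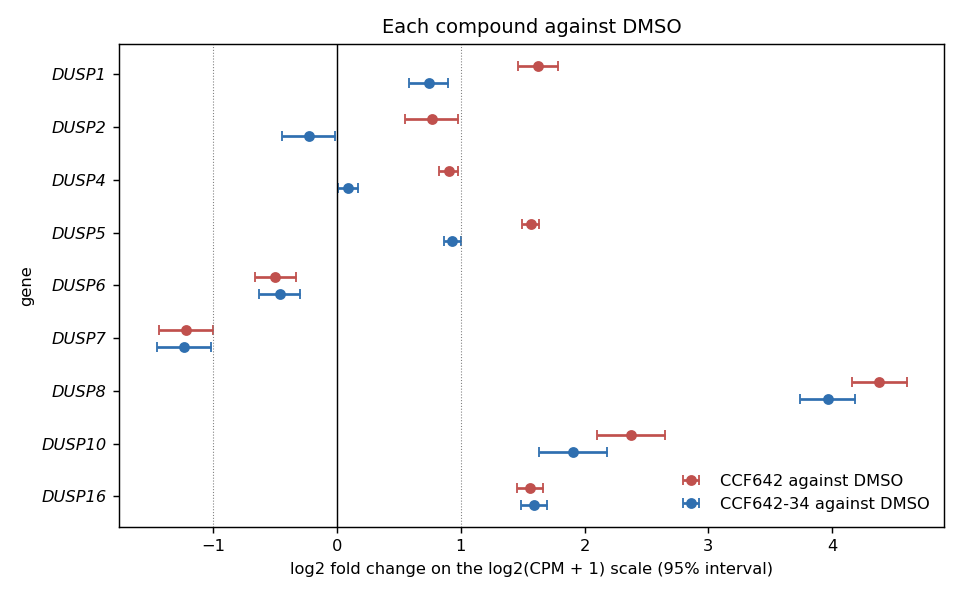
Log2 fold change of each DUSP gene (y axis) against DMSO on the log2(CPM + 1) scale (x axis), with its 95% interval from the fit; red points are CCF642, blue points CCF642-34, and dotted lines mark a 2-fold change. DUSP8 lies farthest to the right (4.38 and 3.96), DUSP7 farthest to the left (-1.22 and -1.24), and the compounds lie apart at DUSP1, DUSP2, DUSP4 and DUSP5.

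The compounds were then compared with each other, as 1 pair at the same dose and time. Of the members, 6 were lower with CCF642-34 than with CCF642, none was higher, and 3 did not pass the test. Of all genes, 17.4% were called lower and 15.9% called higher in this comparison. The median log2 difference of the members was -0.47, against 0.0093 for all genes. All 4 nuclear members were lower with CCF642-34. The differences were 0.50-fold for DUSP2 (log2 -0.997 ± 0.11 SE, limma adjusted p = 1.94e-10), 0.54-fold for DUSP1 (-0.88 ± 0.079, 1.26e-12), 0.57-fold for DUSP4 (-0.81 ± 0.039, 2.23e-22) and 0.65-fold for DUSP5 (-0.63 ± 0.034, 2.47e-20). Ordered from the most negative difference among all 11048 genes, DUSP2 was at place 34, DUSP1 at 57, DUSP4 at 82 and DUSP5 at 192. No member passed the 2-fold rule, which 0.299% of all genes met downward. DUSP2 fell just short of it, at 1.996-fold, and passed it without CCF642 replicate 2 or without CCF642-34 replicate 1, and under 5 other settings.

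Of the phosphatases of JNK and p38, DUSP8 and DUSP10 were also lower with CCF642-34 than with CCF642, but by less. The log2 difference of DUSP8 was -0.42 ± 0.11 (SE, limma adjusted p = 0.00272). It missed the threshold without CCF642 replicate 2 (adjusted p = 0.0786) or CCF642-34 replicate 2 (0.0856). That of DUSP10 was -0.47 ± 0.14 (adjusted p = 0.00587), and it missed the threshold without CCF642 replicate 1 (0.110), CCF642-34 replicate 1 (0.0859) or CCF642-34 replicate 2 (0.0577). A difference between the compounds was not detected for DUSP16, DUSP6 and DUSP7. The log2 difference was 0.031 for DUSP16 (95% interval -0.074 to 0.14, adjusted p = 0.691), 0.034 for DUSP6 (-0.13 to 0.20, adjusted p = 0.793) and -0.016 for DUSP7 (-0.23 to 0.20, adjusted p = 0.933). The intervals of all 3 stay within a change of 1.18-fold either way.

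**Figure D3:**
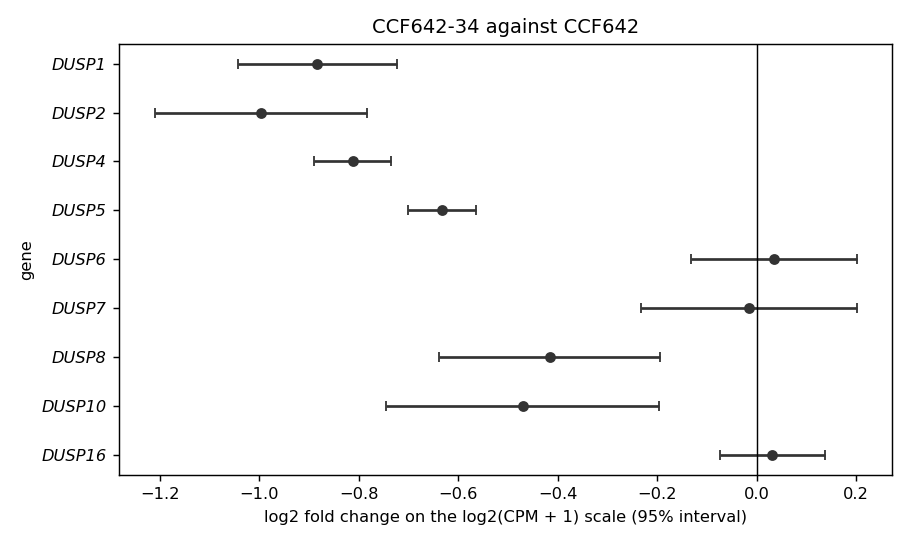
Log2 difference of CCF642-34 from CCF642 for each DUSP gene (y axis) on the log2(CPM + 1) scale (x axis), with its 95% interval from the fit. The 4 nuclear members lie between -0.997 and -0.63, DUSP8 and DUSP10 between these and 0, and the intervals of DUSP6, DUSP7 and DUSP16 include 0.

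Levels can be compared between members only per length. Per kb of the longest coding transcript, the mean level in DMSO was 428 CPM for DUSP5 and 68.6 for DUSP4. DUSP16 (10.3), DUSP1 (9.93), DUSP2 (9.51), DUSP6 (9.36) and DUSP7 (8.94) followed, and each of these overlapped its neighbour in the order. DUSP10 was at 1.61 and DUSP8 at 0.321 CPM per kb, each apart from the next. With CCF642 the order was DUSP5 (1153), DUSP4 (117), DUSP1 (28.9), DUSP16 (28.0), DUSP2 (15.2), DUSP8 (10.4), DUSP10 (8.99), DUSP6 (5.98) and DUSP7 (3.33). Here DUSP1 overlapped DUSP16 and DUSP8 overlapped DUSP10. DUSP8 thus moved from the last of 9 places with DMSO to place 6 with CCF642, and to place 5 with CCF642-34, while DUSP7 was last with both compounds. With the mean length of the coding transcripts, DUSP8 was at places 7 and 6. With CCF642-34, DUSP5 was at 767, DUSP4 at 68.6, DUSP16 at 29.5 and DUSP1 at 15.9 CPM per kb, and DUSP8 (7.95) overlapped DUSP2 (7.53). The length chosen matters most for DUSP6 and DUSP16, which have short and long coding transcripts: with the mean length, DUSP6 in DMSO was at 20.6 and DUSP16 at 22.1 CPM per kb.

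**Figure D4:**
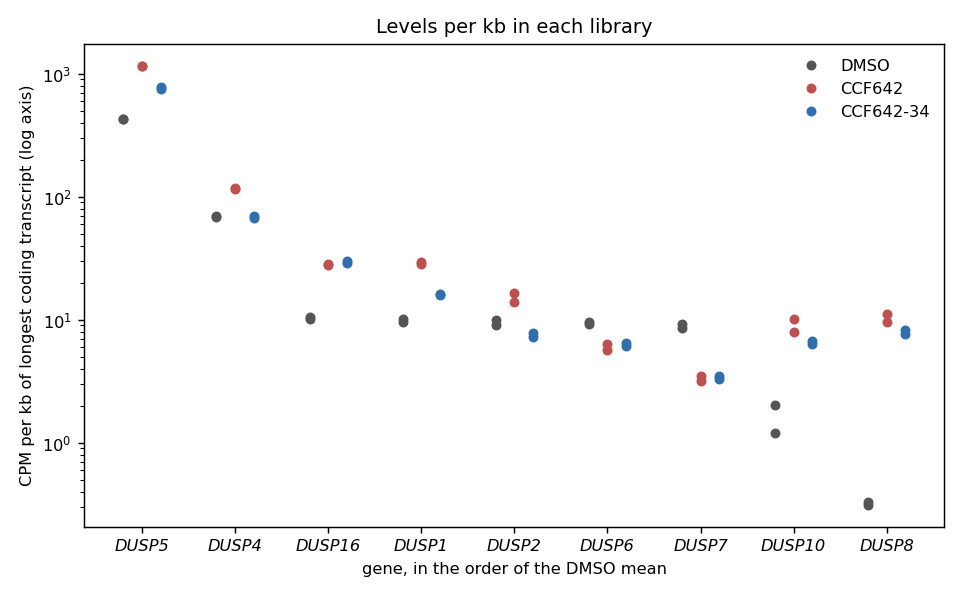
Level of each DUSP gene (x axis, in the order of the DMSO mean) as CPM per kb of its longest coding transcript (y axis, log scale); each point is 1 library, grey for DMSO, red for CCF642 and blue for CCF642-34. DUSP5 and DUSP4 lie above the others in all 6 libraries, and DUSP8 rises from 0.321 with DMSO to 10.4 and 7.95 with the compounds.

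The other genes of MAP kinase signalling were taken from a list of 115 names, of which 90 were listed. With CCF642, 42 were higher, 24 were lower and 24 did not pass the test, and the median was 0.13 on the log2 scale. With CCF642-34, 33 were higher, 21 lower and 36 neither, and the median was 0.05. The excess of higher genes depends on the scaling: with library size alone, 34 were higher and 32 lower with CCF642, and 30 and 29 with CCF642-34. These shares are to be read against the 31.8% and 31.3% of all genes called with CCF642, and the 29.7% and 27.9% with CCF642-34. Between the compounds, 9 were higher with CCF642-34, 22 were lower and 59 did not pass, where 15.9% and 17.4% of all genes were called higher and lower. The named genes below are among the largest changes of each branch, by a rule on size.

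CCF642 raised 2 and lowered 5 of the 10 listed MAP kinases themselves, which the DUSP proteins act on. CCF642-34 raised 2 and lowered 2. MAPK14, the p38α kinase, had log2 fold changes of -0.46 ± 0.058 (SE) and -0.37 ± 0.058 with CCF642 and CCF642-34. MAPK6, an atypical kinase also called ERK3, had 0.71 ± 0.050 and 0.78 ± 0.050. Of the 7 MAP2 kinases, which phosphorylate the MAP kinases, 4 were higher with either compound. MAP2K3, an activator of p38, had log2 fold changes of 1.02 ± 0.046 and 0.66 ± 0.046.

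Upstream, 7 of 14 genes of RAS and RAF input were higher and 3 lower with CCF642, and 6 and 3 with CCF642-34. BRAF, a kinase at the head of the ERK cascade, rose by 1.05 ± 0.066 (log2, SE) with CCF642 and by 0.62 ± 0.066 with CCF642-34. Of 17 stress-responsive MAP3 kinases and GADD45 activators, 11 were higher and 3 lower with CCF642, and 6 and 4 with CCF642-34. MAP3K8, a kinase that feeds the ERK and JNK pathways, rose by 2.61 ± 0.084 and 2.06 ± 0.084. GADD45G, one of a family of small proteins that activate MAP3K4, rose by 1.85 ± 0.17 and 1.496 ± 0.17. It was low with DMSO, at 1.22 and 1.495 CPM (28 and 32 reads). The pseudocount shrinks such a change, and its plain ratios of mean CPM were 5.14 and 4.003. GADD45A of the same family rose by 1.796 ± 0.063 and 1.64 ± 0.063. MAP3K3 fell by 0.61 ± 0.065 and 0.45 ± 0.065 on the log2 scale.

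Below the MAP kinases, 3 of 10 MAPK-activated kinases were higher and 2 lower with CCF642, and 1 and 4 with CCF642-34. Of the scaffolds, CCF642 raised 4 of 5 and lowered none, and CCF642-34 raised 3 and lowered 1. PEA15, which holds ERK in the cytoplasm, had log2 fold changes of 1.17 ± 0.047 (SE) and 0.88 ± 0.047. The other feedback inhibitors of ERK signalling divided 3 and 3 with CCF642, and 3 higher and 1 lower with CCF642-34. ERRFI1, an inhibitor of the EGF receptor, had 1.52 ± 0.21 and 1.21 ± 0.21, and SPRY1, of the Sprouty family, -1.12 ± 0.21 and -0.65 ± 0.21, both at low levels in every group.

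Of 6 listed genes that respond to ERK, 4 were higher and 2 lower with CCF642, and 3 and 2 with CCF642-34. With CCF642 and CCF642-34, PHLDA1 rose by 1.71 ± 0.054 and 0.52 ± 0.054 (log2, SE), EGR1, an immediate early transcription factor, by 1.596 ± 0.19 and 0.77 ± 0.19, and ETV5 by 1.19 ± 0.088 and 1.12 ± 0.088. MYC fell by 2.04 ± 0.045 with CCF642 and by 1.25 ± 0.045 with CCF642-34. EGR1 was low with DMSO, at 31 and 25 reads. The pseudocount shrinks the change of a gene this low. The plain ratios of mean CPM of EGR1 to DMSO were 4.30 with CCF642 and 2.16 with CCF642-34. In the comparison of the compounds these genes also gave the largest differences on the list. PHLDA1 (log2 difference -1.19 ± 0.054, limma adjusted p = 3.88e-23) and EGR1 (-0.82 ± 0.19, 0.000446) were lower with CCF642-34, and MYC was higher (0.79 ± 0.045, 1.77e-19). PTPRR, a tyrosine phosphatase that acts on MAP kinases, had 0.57 ± 0.23 and did not pass (0.0514). It was also low, at 0.632 and 0.841 CPM with CCF642 and at 1.23 and 2.05 CPM with CCF642-34.

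Of 5 listed phosphatases that act on MAP kinases and are not DUSP members, none was higher and 2 were lower with either compound, and the median log2 fold change was -0.12 with CCF642 and 0.045 with CCF642-34. Of 10 listed atypical DUSP genes, most of which lack the MAP kinase binding domain, 4 were higher and 3 lower with CCF642, and 5 and 2 with CCF642-34. DUSP3, an atypical phosphatase that can act on ERK and JNK, had log2 fold changes of 1.20 ± 0.10 (SE) and 1.03 ± 0.10. DUSP18 had -0.61 ± 0.21 and -0.69 ± 0.21. It was low, at 3.44 and 2.38 CPM with DMSO and at 1.26 to 1.42 CPM with the compounds. The pseudocount shrinks such a change, and the plain ratios of mean CPM were 0.477 and 0.446. No test of the DUSP members against these lists was made.

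**Figure D5:**
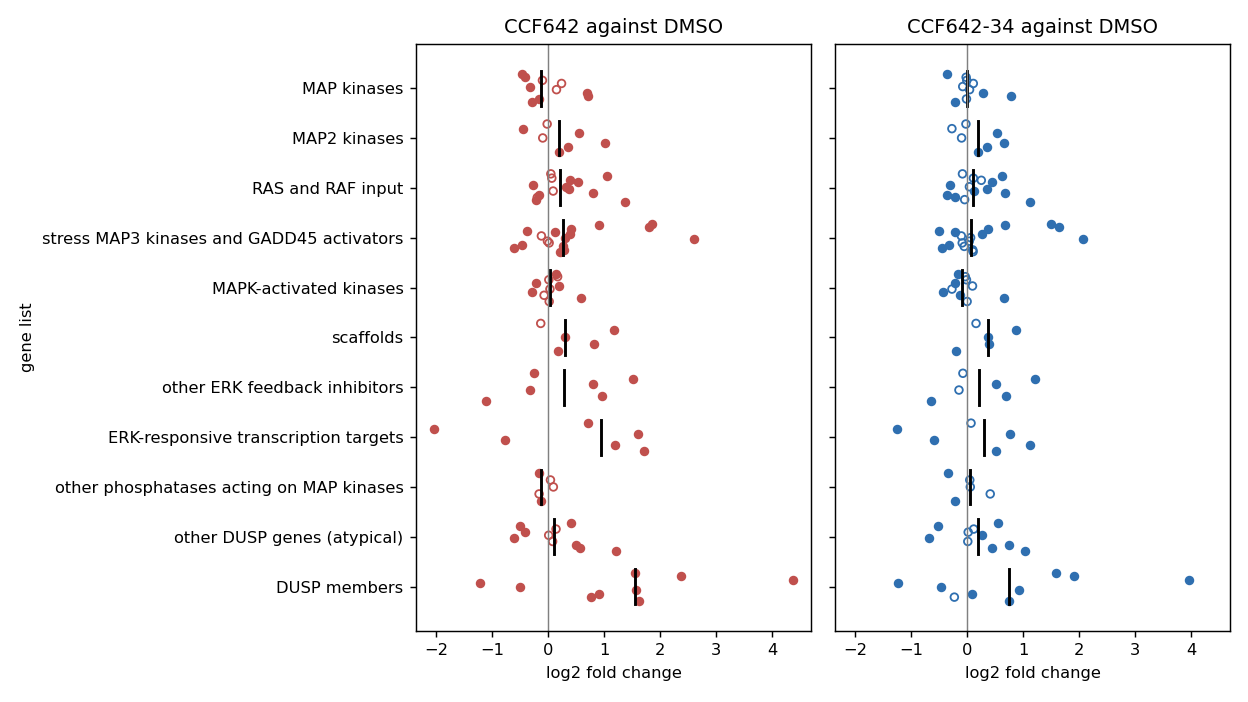
Log2 fold change (x axis) of each listed gene of the MAP kinase list, by branch (y axis), and of the 9 DUSP members, against DMSO for CCF642 (left, red) and CCF642-34 (right, blue). Filled points passed an adjusted p of 0.05, open points did not, and black bars are medians; the bar of the DUSP members is at 1.56 on the left and 0.74 on the right.

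For each member, the 3 genes with the most similar pattern were sought among 9381 genes with a mean of at least 5 CPM, as the root mean square difference of the log2 values over the 6 libraries, each less its own DMSO mean. This is a description with no test, and it says nothing of shared control. DUSP16 was nearest to MTHFD2 (0.022), ALDH1L2 (0.037) and ASNS (0.042), which encode mitochondrial folate enzymes and asparagine synthetase. DUSP8 was nearest to SESN2 (0.16), ADM2 (0.17) and CHAC1 (0.20), which encode a stress-inducible sestrin, a peptide hormone and an enzyme that degrades glutathione. DUSP10 was nearest to SQSTM1 (0.19), an autophagy receptor, CD55 (0.20) and SLC3A2 (0.23), a subunit of amino acid transporters.

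The nuclear members had other neighbours. DUSP5 was nearest to OTUD1 (0.030), a deubiquitinase, then PER1 (0.043), a repressor of the circadian clock, and PCDH1 (0.056). DUSP1 was nearest to TRPV3 (0.057), GNA13 (0.065) and DNAJB4 (0.067), an ion channel, a G protein subunit and a co-chaperone. DUSP4 was nearest to IL21R (0.065), FAT1 (0.068) and PDLIM3 (0.075), and DUSP2 to ITGB8 (0.11), HSPE1 (0.12) and NABP1 (0.12). Of the members that fell, DUSP6 was nearest to KIF11 (0.032), a mitotic motor protein, ZNF611 (0.035) and SLC12A2 (0.036), and DUSP7 to TCAF1 (0.041), SKP2 (0.090) and PPP1R9B (0.092).

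The members lie on 8 chromosomes. In the GENCODE annotation of GRCh38, DUSP5 is on the plus strand of chromosome 10 at 110497838 to 110511544, and the others are on minus strands. DUSP8 is on chromosome 11 at 1554044 to 1571920, DUSP10 on chromosome 1 at 221701424 to 221742176, and DUSP1 on chromosome 5 at 172768090 to 172771195. DUSP16 and DUSP6 share chromosome 12, at 12474210 to 12562383 and at 89347232 to 89353271. The submitters' notes name hg19, so these positions are not those of the deposited values, which are identified by gene symbol alone.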

How the data were processed

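The authors deposited a table of CPM (read counts relative to library totals), with 11048 gene symbols and 6 libraries (3 groups of 2). The submitters' notes name STAR, edgeR 3.24.3, limma 3.38.3 and hg19, with no role given. How low genes were removed is not given in the sources used here, and no filter was added. Every listed gene reached at least 1.50 CPM in some library, so a gene below that with DMSO is listed only through a treated library. Among the genes named here, DUSP8, GADD45G, EGR1, ERRFI1, PTPRR and COL1A1 were such genes. All values were whole multiples of the worth of 1 read (100% within 0.1 of a read), so whole reads and library totals were recovered from them. CPM were scaled by TMM (edgeR 4.0.16), and log2(CPM + 1) was fitted with limma 3.58.1 (R 4.3.3, trend) over all 6 libraries with no block. Residual degrees of freedom were 3, and 42.92 were added by sharing spread across genes. The 3 comparisons were two-sided, with Benjamini-Hochberg adjustment over all genes. Recovered reads were also fitted with edgeR, DESeq2 1.42.0 and limma-voom. The fit was tested on simulated data. Scaling by library size alone moves the median of all genes by -0.13 (CCF642) and -0.078 (CCF642-34) on the log2 scale.

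The members, the pathway list with its branches and the motifs were chosen with earlier results of these data known. Named pathway genes are among the 2 largest increases and decreases per branch that passed the test against DMSO, and the 2 largest differences each way between the compounds. A gene that met this rule is not reported here. Lengths are from GENCODE and upstream sequences from RefSeq, both on GRCh38. Intervals for single libraries are exact binomial (Clopper-Pearson, 95%) and cover counting error only, since no molecular identifiers are described.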

Additional observations from a re-analysis of the deposited data

How the results depend on the processing

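Over 17 alternatives for each member and comparison, 434 of 459 values kept their direction and their side of the threshold, 16 lost and 4 gained a call, and 5 changed sign. The changes of sign were all in values near 0: DUSP4 with CCF642-34 (-0.00042 with library size alone), and, between the compounds, DUSP7 (0.025 with library size alone, -0.082 to 0.050 without single replicates) and DUSP6 (-0.043 to 0.11 without single replicates). The lost calls were those of DUSP4 with CCF642-34 and of DUSP8 and DUSP10 between the compounds, and the gained calls those of DUSP2 with CCF642-34. DUSP10 between the compounds also missed with DESeq2 (adjusted p = 0.207), and DUSP8 and DUSP10 with a gene-wise model that shares no spread (0.118 and 0.354). The number of members at least 2-fold lower with CCF642-34 than with CCF642 went from 0 to 1 (DUSP2) with a pseudocount of 0.25, DESeq2 size factors, edgeR, DESeq2 or limma-voom, and was 0 to 1 without single replicates. The gene-wise model gave 2 pathway genes higher and 9 lower between the compounds, in place of 9 and 22. Its log2 differences are those of the main fit, and only the sharing of spread across genes is left out. Replicate numbers did not pair the samples: differences between replicates correlated by -0.0089, -0.056 and 0.047 between groups. With a replicate block, 5 members were higher with CCF642-34, since DUSP4 missed the threshold (adjusted p = 0.0569), 12 pathway genes were higher between the compounds in place of 9, and no other call of a member changed. With mean transcript lengths, 12 of 27 places in the order of levels per kb moved. With 2 libraries per group, a lone library left by leaving out its partner is assumed to vary like the others. Depth limits mainly DUSP8 and DUSP10 with DMSO, at 30 to 116 reads.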
